A study of Mus musculus with 4 samples.

Results

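The genes described here are 40 regulators and effectors of the mitotic cell cycle, chosen by name for their known roles, with earlier results of these arrays in view, and grouped by the phase they serve: G1 regulators, S-phase replication genes and M-phase genes. Of these, 39 had a probe set (the group of short oligonucleotides with which the array reads one transcript) named for them alone, and they are represented by 93 of the 45101 probe sets on the array, or 39 of the 18194 genes that could be named. The G1 group held 17 measured genes, the S group 9 and the M group 13. The remaining M-phase member, Ccnb1, had no probe set named for it alone, so its level is not analysed. It enters only the promoter description, as one of the M-phase windows.

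RNA was measured in cells from Rax::GFP mouse embryonic stem cell (ESC) aggregates at day 4.5 of SFEBq, a serum-free floating culture without added growth factors in which the aggregates turn into neuroectoderm. The line reports the activity of Rax, an eye field and forebrain transcription factor, with GFP, and fluorescence-activated sorting split the same kind of aggregate into Rax::GFP+ cells (rostral) and Rax::GFP- cells (presumptive caudal), hereafter GFP+ and GFP-. Each group had 2 arrays from biological duplicates, each pooled over many aggregates, and both groups shared the line, the day and the medium. The gate on one reporter defined the groups, so GFP- cells are everything outside it rather than a marked cell type, and whether a numbered GFP+ and GFP- pair came from one sort was not stated.

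The labels were checked first. Rax itself stood at 10.70 and 10.86 on the GFP+ arrays and at 8.58 and 8.88 on the GFP- arrays (log2 RMA values, the authors' background-corrected and summarised signals). All 5 rostral neural markers were lower in GFP- cells in limma's moderated test (adjusted p under 0.05 over all probe sets), as were 5 of 7 neural progenitor markers. The rostral markers include Rax, whose reporter set the gate, so its difference follows from the sort. Over all genes, 2.63% were lower and 5.4% higher in GFP- cells by this test. Markers of other cell types moved with the groups too: 9 of 10 pluripotency markers and 8 of 10 endoderm markers were higher in GFP- cells. The mean value over the pluripotency list was 6.80 and 6.68 on the GFP+ arrays and 9.09 and 9.05 on the GFP- arrays, and that over the endoderm list was 6.02 and 6.51 against 8.26 and 8.39. Of 8 postmitotic neuron markers, 1 was higher (Neurod1) and 1 lower (Tubb3). In bulk RNA, fewer cells of a type and less RNA per cell cannot be told apart, and the part that these cell types had in the differences below was not tested.

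As background, a cycling cell commits to division in G1, when D-type cyclins with Cdk4 or Cdk6 and then cyclin E with Cdk2 phosphorylate the retinoblastoma family and release E2F factors. E2F factors switch on the genes of DNA synthesis for S phase, and a later wave of transcription, repressed by the DREAM complex in resting and G1 cells and driven later by B-Myb and FoxM1 through CHR elements and by NF-Y at CCAAT boxes, supplies the kinases, cyclins and centromere proteins of G2 and mitosis. Mouse ESCs and early neuroectoderm both divide fast, with a short G1 and a large share of cells in S phase, so transcripts of this machinery are known to be abundant in both.

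These promoter classes could be read for part of the set. RefSeq promoter windows (GRCm38.p6, from 250 bases before to 50 bases after the transcription start site) were found for 33 of the 40 named genes, with 38 windows in all, and each was searched on both strands for 4 E2F words (TTTCCCGC, TTTGGCGC, TTTGCCGC and TTTCGCGC), for the CHR word TTTGAA and for CCAAT. The E2F words stood in 4 of 9 S-phase windows (44.4%), in 3 of 17 G1 windows (17.6%) and in 1 of 12 M-phase windows (8.33%), beside 2.26% of all 32851 windows. The CHR word stood in 8 of 12 M-phase windows (66.7%), 1 of 9 S-phase windows (11.1%) and 2 of 17 G1 windows (11.8%), beside 17.9% of all windows. CCAAT stood in all 9 S-phase windows, in 11 of 12 M-phase windows (91.7%) and in 7 of 17 G1 windows (41.2%), beside 37.4% of all windows. Where a gene has several start sites, each window was counted, overlapping matches of 2 E2F words were counted as 1 window, and a match is a description of letters and not of a bound site. The 200 bases before the start site are shown for 5 members, the 2 whose level passed the test (Mki67 and Cdk6) and one each that shows the mitotic, mixed and replication arrangements (Cdc20, Cdk1 and Mcm6). They are written 5′ to 3′ on the gene's strand with the E2F, CHR and CCAAT letters, on either strand, in capitals.
Mki67: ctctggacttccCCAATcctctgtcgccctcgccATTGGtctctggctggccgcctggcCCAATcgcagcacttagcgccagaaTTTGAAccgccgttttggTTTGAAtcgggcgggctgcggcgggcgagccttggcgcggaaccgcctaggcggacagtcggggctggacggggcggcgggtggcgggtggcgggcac
Cdc20: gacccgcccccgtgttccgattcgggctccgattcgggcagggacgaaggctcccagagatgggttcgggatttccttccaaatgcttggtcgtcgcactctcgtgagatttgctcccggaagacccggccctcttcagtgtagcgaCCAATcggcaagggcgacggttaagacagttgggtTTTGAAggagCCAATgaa
Cdk1: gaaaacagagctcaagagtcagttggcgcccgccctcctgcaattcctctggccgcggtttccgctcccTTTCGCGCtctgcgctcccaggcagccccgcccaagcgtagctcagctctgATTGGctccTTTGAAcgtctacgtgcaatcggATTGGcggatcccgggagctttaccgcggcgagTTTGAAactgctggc
Mcm6: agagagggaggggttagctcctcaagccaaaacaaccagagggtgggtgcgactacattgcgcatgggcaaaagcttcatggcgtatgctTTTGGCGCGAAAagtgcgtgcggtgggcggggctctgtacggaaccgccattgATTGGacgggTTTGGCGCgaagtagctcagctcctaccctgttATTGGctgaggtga
Cdk6: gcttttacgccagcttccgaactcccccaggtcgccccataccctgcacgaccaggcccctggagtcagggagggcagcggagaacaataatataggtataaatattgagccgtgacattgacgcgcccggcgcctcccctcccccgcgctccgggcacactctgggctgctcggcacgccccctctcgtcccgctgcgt

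The Mki67 stretch (chr7:135716380-135716579, minus strand) held 2 CHR words, 116 and 98 bases before the start site, and 3 CCAAT boxes upstream of them. That of Cdc20 (chr4:118437344-118437543, minus strand) held 1 CHR word 18 bases before the start site between 2 CCAAT boxes, and that of Cdk1 (chr10:69352913-69353112, minus strand) held 1 E2F word, 2 CHR words and 2 CCAAT boxes. Mcm6 (chr1:128359706-128359905, minus strand) had E2F words 110, 106 and 47 bases before the start site, the first 2 overlapping, and 2 CCAAT boxes. The Cdk6 stretch (chr5:3343693-3343892, plus strand) held none of these words.

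Between GFP+ and GFP- cells, most of the cell cycle set differed little, as did most genes on the array. Of the 39 genes, 1 was higher in GFP- cells (Cdk6, the kinase partner of D-type cyclins) and 1 was lower (Mki67, which encodes the proliferation marker Ki-67 that coats mitotic chromosomes), by limma with Benjamini-Hochberg adjustment over all 45101 probe sets. Over all genes, read in the same way at the probe set with the highest mean, 8.02% passed, 5.4% as higher and 2.63% as lower in GFP- cells. At an unadjusted p under 0.05 there were 10 of 39 members, 2 higher and 8 lower, beside 25.8% of all genes. Of the 93 member probe sets, 4 passed (2 of Cdk6, 1 of Mki67 and 1 of Ccnd2), beside 7.47% of all probe sets. The 95% interval of the difference lay within 1 log2 unit of 0, that is within 2-fold, for 37 of the 39 genes, beside 17191 of the 18194 genes in all. The median size of a difference, whatever its sign, was 0.13 over the members and 0.13 over all genes.

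**Figure D1:**
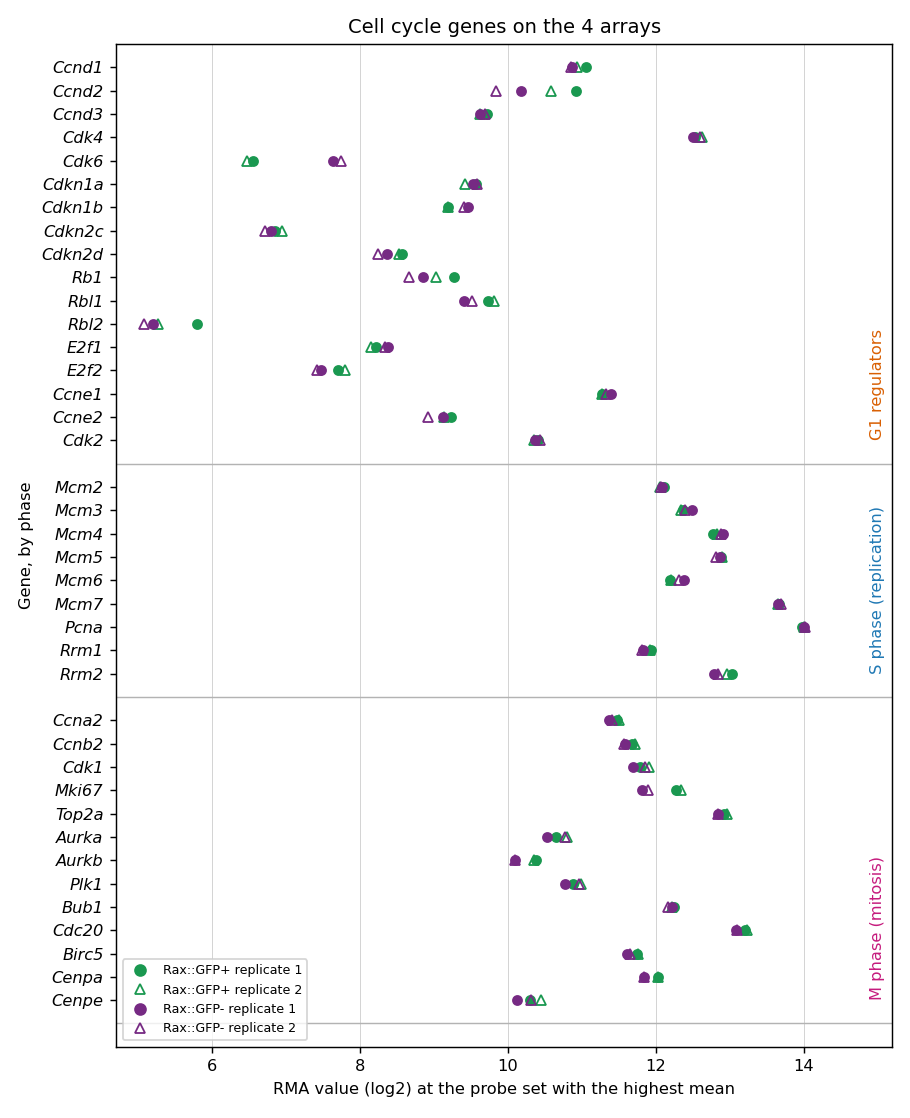
RMA values (log2, x axis) of the 39 measured genes (y axis, by phase) on each of the 4 arrays, with GFP+ in green, GFP- in purple, circles for replicate 1 and triangles for replicate 2. For most genes the 4 symbols lie almost on top of each other, while Cdk6, Ccnd2 and Mki67 show a gap between the colours. Values of different genes come from different probe sets and are not compared.

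In direction, 28 of the 39 differences (GFP- minus GFP+) were below 0, with a median of -0.10 on the log2 scale, beside 38.1% below 0 and a median of 0.05 over all genes. Both GFP- arrays lay below both GFP+ arrays for 20 members and above them for 8, beside 21.7% and 38.4% of all genes, and the groups overlapped for the other 11. Among the 3202 genes with a mean value of at least 10, the median difference was 0.00 and 48.8% were below 0. In that brighter class, which holds all M-phase and S-phase members, both GFP- arrays lay below both GFP+ arrays for 33.9% of genes and above them for 37.5%.

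The 3 phase groups had different spreads. They also had different signal levels, with a median value of 9.31 for G1, 12.85 for S phase and 11.69 for M phase. The median size of a difference was 0.13 over all genes and 0.11 over those with a mean value of at least 10. The part of signal level in the spreads was not tested. The G1 differences ran from -0.75 to 1.17 with a median of -0.14, the S-phase differences from -0.18 to 0.15 with a median of 0.01, and the M-phase differences from -0.45 to -0.04 with a median of -0.12. The difference between the phase medians was not tested, because the members were chosen by hand and genes of one program are not independent replicates.

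**Figure D2:**
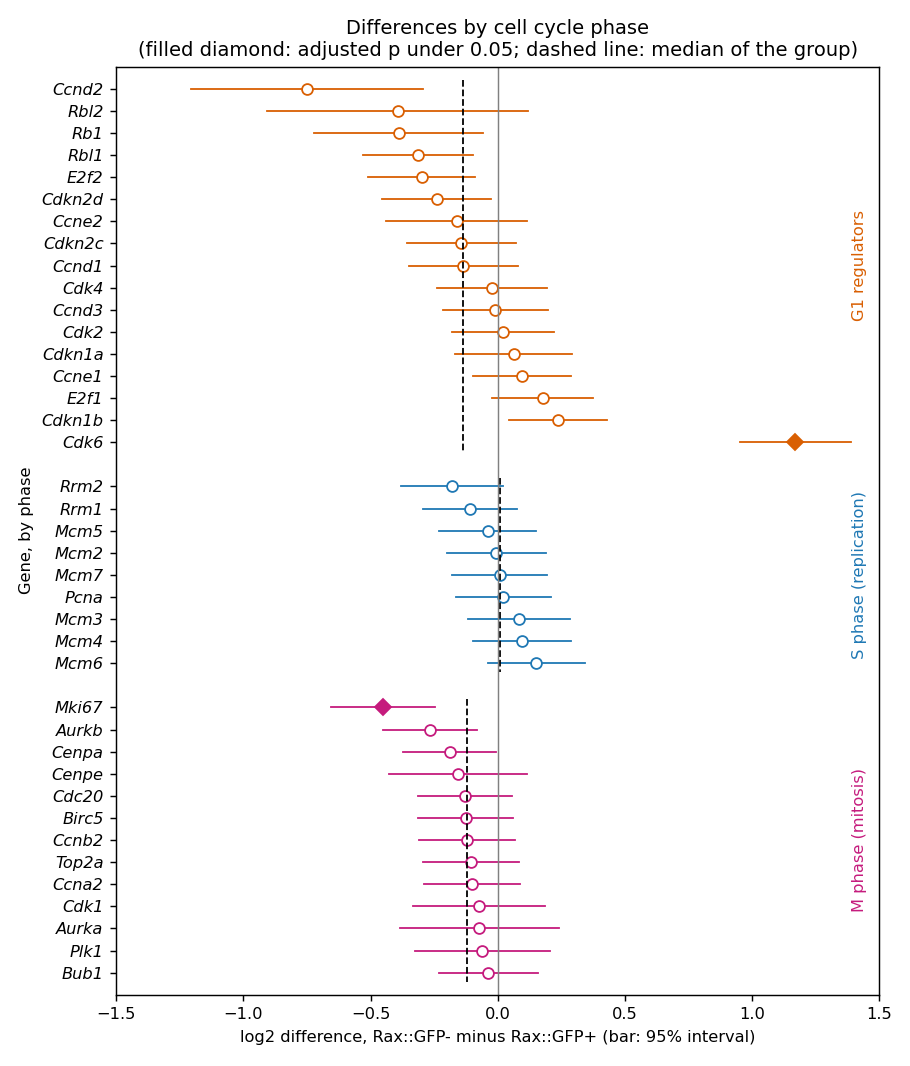
Differences of log2 RMA values, GFP- minus GFP+ (x axis), by gene and phase (y axis), with 95% intervals as bars, the median of each phase as a dashed line and a filled diamond where the adjusted p was under 0.05. The 2 filled diamonds are Cdk6 at 1.17 and Mki67 at -0.45, the S-phase genes sit around 0, and all 13 M-phase points lie left of 0 with most intervals crossing it.

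Among the cyclin D genes and their kinases, which drive early G1, Cdk6 and Ccnd2 had the largest differences. Cdk6 was at 6.56 and 6.47 on the GFP+ arrays and at 7.63 and 7.74 on the GFP- arrays (replicates 1 and 2, GFP+ first, as in each pair of values set against another below). Its level was thus 2.25-fold higher in GFP- cells, a log2 difference of 1.17 (SE 0.08, 95% interval 0.95 to 1.39, limma adjusted p = 0.00881). Both GFP- arrays were above both GFP+ arrays at all 3 Cdk6 probe sets. The second passed as well (6.72 and 6.46 against 7.35 and 7.62, difference 0.89, adjusted p = 0.039), while the third, dim on every array, did not (0.27, adjusted p = 0.174). Cdk6 passed without either GFP+ array, and without GFP- replicate 1 or 2 its difference stayed between 1.12 and 1.22 while its adjusted p was 0.106 or 0.113.

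Ccnd2, which encodes the D-type cyclin typical of neural and other progenitors, pointed the other way without passing at its reference probe set. It read 10.92 and 10.59 against 10.17 and 9.83, a difference of -0.75 (SE 0.17, 95% interval -1.21 to -0.29, limma adjusted p = 0.0761). All 7 Ccnd2 probe sets had both GFP- arrays below both GFP+ arrays and an unadjusted p under 0.05, with differences from -0.77 to -0.28. These 7 read the same transcripts on the same arrays and are not independent. One of them passed (9.93 and 9.65 against 9.15 and 8.94, difference -0.75, adjusted p = 0.0497). In each group replicate 1 read higher than replicate 2 at this gene. The gene passed when Storey's q-value replaced the Benjamini-Hochberg adjustment (q = 0.0440), with an intensity trend in the variance (adjusted p = 0.0201) and when its probe sets were averaged (difference -0.64, adjusted p = 0.032).

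**Figure D3:**
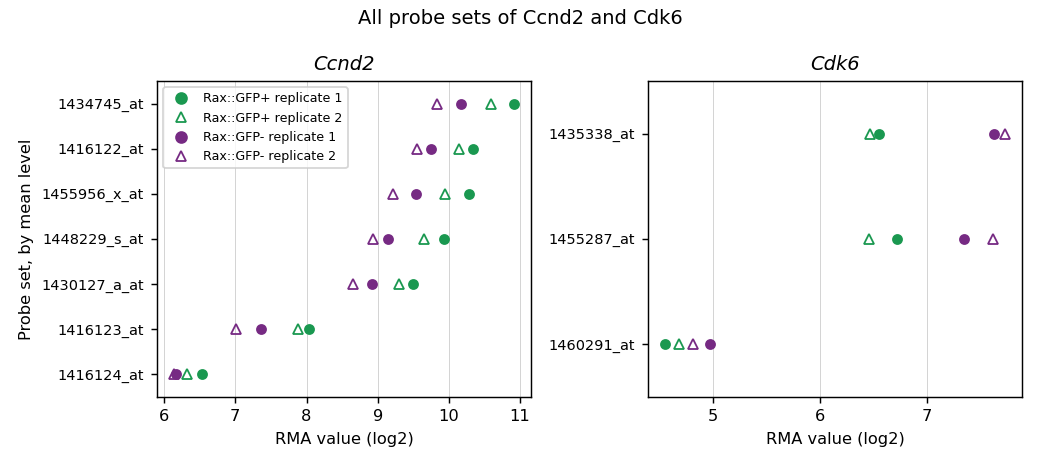
RMA values (log2, x axis) at each of the 7 probe sets of Ccnd2 (left) and the 3 of Cdk6 (right), with probe sets on the y axis in order of mean value, GFP+ in green, GFP- in purple, circles for replicate 1 and triangles for replicate 2. The purple symbols are left of the green ones in every Ccnd2 row and right of them in every Cdk6 row.

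The remaining early G1 genes gave small differences. Ccnd1, the cyclin D that follows mitogen signals in many tissues, read 11.05 and 10.93 against 10.87 and 10.85, a difference of -0.14 (limma adjusted p = 0.361), while its other 2 probe sets gave -0.02 and 0.14 with overlapping groups. Ccnd3 differed by -0.01 (adjusted p = 0.961) and Cdk4, the other kinase partner of D-type cyclins, read 12.53 and 12.62 against 12.51 and 12.60 (difference -0.02, adjusted p = 0.897). The sign of these last 2 turned when arrays were centred on their medians, to 0.03 and 0.02.

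None of the 4 inhibitors of cyclin-dependent kinases passed. Cdkn1b (p27Kip1, a brake on cyclin E and Cdk2) read 9.19 on both GFP+ arrays and 9.46 and 9.40 on the GFP- arrays, a difference of 0.24 (limma adjusted p = 0.131, unadjusted p = 0.0257). Cdkn2d (p19Ink4d, a blocker of Cdk4 and Cdk6) went the other way at 8.56 and 8.52 against 8.36 and 8.24 (-0.24, adjusted p = 0.155). Cdkn2c (p18Ink4c) differed by -0.14 (adjusted p = 0.339). Cdkn1a (p21Cip1, the inhibitor induced by p53) read 9.56 and 9.42 against 9.52 and 9.59, so the groups overlapped, and its difference was 0.06 with a 95% interval of -0.17 to 0.29. Its dimmer probe set read 8.73 and 8.68 against 8.83 and 8.92, with both GFP- arrays above both GFP+ arrays (0.17, limma adjusted p = 0.253).

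The retinoblastoma family and E2F genes made up the G1 subgroup with the lowest median, -0.31 over 5 genes, with none past the adjusted threshold. Rb1, the retinoblastoma protein gene, read 9.27 and 9.02 against 8.86 and 8.66 (difference -0.39, limma adjusted p = 0.143). Rbl1 (p107), a relative that partners repressive E2Fs, read 9.73 and 9.81 against 9.41 and 9.51 (-0.31, adjusted p = 0.096). Rbl2 (p130), the pocket protein typical of resting cells, was dim, at 5.79 and 5.27 against 5.20 and 5.07 (-0.39, adjusted p = 0.285). E2f2, an activator E2F, read 7.69 and 7.80 against 7.47 and 7.42 (-0.30, adjusted p = 0.0997). E2f1, the best known activator E2F, pointed upward with 8.22 and 8.15 against 8.38 and 8.34 (0.18, adjusted p = 0.225). Thus 4 of these 5 genes had both GFP- arrays below both GFP+ arrays and 1 had both above, beside 21.7% and 38.4% of all genes. The dimmer probe sets of these genes were less uniform, at -0.11 for Rb1, -0.72, -0.18 and 0.09 for Rbl1, -0.01 for Rbl2, -0.45 for E2f2 and 0.03 and -0.11 for E2f1, and none of them passed. With 1 array left out, the Rbl2 difference ran from -0.66 to -0.13. E2f2 passed in 1 alternative, the mean of its probe sets, and Rbl1 in 1, the intensity trend in the variance, where Cdkn1b passed too.

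At the end of G1, cyclin E and Cdk2 license the entry into S phase. Ccne1 read 11.27 on both GFP+ arrays and 11.40 and 11.33 on the GFP- arrays, a difference of 0.10 (limma adjusted p = 0.469). Ccne2 differed by -0.16 (adjusted p = 0.402) and Cdk2 by 0.02 (adjusted p = 0.904). Only 1 of the 17 G1 genes therefore passed in either direction, beside the 8.02% of all genes. At an unadjusted p under 0.05 there were 7, 2 of them higher and 5 lower in GFP- cells, beside 25.8% of all genes.

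The S-phase group was the tightest. At the brightest probe sets none of its 9 genes passed by limma and none had an unadjusted p under 0.05. There the 95% intervals of all 9 lay between -0.38 and 0.34, so that each interval stayed between 0.768-fold and 1.27-fold. The 6 genes of the Mcm helicase, which unwinds DNA at the fork, differed by -0.04 to 0.15 with a median of 0.05. Mcm6 was the largest at 12.19 and 12.20 against 12.38 and 12.32 (0.15, 95% interval -0.04 to 0.34, adjusted p = 0.271), although its other 2 probe sets gave -0.03 and 0.00 with overlapping groups. The subunits Mcm3 (12.37 and 12.34 against 12.48 and 12.40) and Mcm4 (12.77 and 12.83 against 12.91 and 12.88) also had both GFP- arrays above both GFP+ arrays, with differences of 0.08 and 0.09 (adjusted p = 0.542 and 0.479). Over the 5 Mcm3 probe sets the difference ran from 0.08 to 0.40. The largest was at a dimmer probe set, which read 8.39 and 8.69 against 8.85 and 9.03 (limma adjusted p = 0.157). Mcm5 was the 1 subunit with both GFP- arrays below, at 12.88 and 12.89 against 12.87 and 12.81 (-0.04, adjusted p = 0.779), a sign that turned over gene means. The groups overlapped for Mcm2 (difference -0.01, adjusted p = 0.975) and Mcm7 (0.01, adjusted p = 0.968). Pcna, the sliding clamp of DNA polymerase, read 13.97 and 14.00 against 14.00 and 14.01, a difference of 0.02 with an interval of -0.16 to 0.21.

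The ribonucleotide reductase genes, which make the deoxynucleotides for replication, lay at the low end of the S-phase group at their brightest probe sets. Rrm2, the regulated subunit, read 13.03 and 12.96 against 12.78 and 12.84, a difference of -0.18 (95% interval -0.38 to 0.02, limma adjusted p = 0.222), and was the largest S-phase difference by size. Rrm1, the constant subunit, differed by -0.11 (adjusted p = 0.394), but its other 2 probe sets gave 0.30 and 0.12, both with the GFP- arrays above the GFP+ arrays, so its sign depends on the probe set. The dimmer probe sets of Rrm2 gave -0.17 and 0.11. In the variance model with an intensity trend Mcm6 and Rrm2 passed, in opposite directions. Read over all 26 S-phase probe sets, 18 differences were above 0 and none passed. Both GFP- arrays lay above both GFP+ arrays for 12 (46.2%) and below for 4 (15.4%), beside 38.4% and 21.7% of all genes. The median over these 26 was 0.08, beside 0.05 over all genes and 0.01 at the brightest probe set of each S-phase gene. Probe sets of the same gene are not independent. The 95% intervals over these probe sets ran from -0.44 to 0.75, and 1 had an unadjusted limma p under 0.05.

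The M-phase genes gave a small difference of one sign. All 13 were below 0, from -0.45 to -0.04, and both GFP- arrays lay below both GFP+ arrays for 8 of them and above for none, with 5 overlapping, beside 21.7% below over all genes and 33.9% over genes with a mean value of at least 10. Only 1 passed, beside 2.63% of all genes lower in GFP- cells. The intervals of all 13 lay between -0.65 and 0.24, or 0.635-fold and 1.18-fold. Over all 24 M-phase probe sets, 21 differences were below 0 (87.5%), beside 38.1% of all genes. Both GFP- arrays lay below both GFP+ arrays for 13 of the 24 and above for 1, and the groups overlapped for 10. Several of these probe sets read the same gene, so they are not independent.

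The gene that passed was Mki67. It read 12.27 and 12.34 on the GFP+ arrays and 11.82 and 11.89 on the GFP- arrays, a log2 difference of -0.45 (SE 0.08, 95% interval -0.65 to -0.25, limma adjusted p = 0.0444), or 1.37-fold higher in GFP+ cells. The gap between the closest arrays of the groups was wider than the distance between the replicates of either. Mki67 was measured by 1 probe set. Its adjusted p was above 0.05 without any one of the 4 arrays, at 0.126 and 0.105 without GFP+ replicate 1 or 2 and 0.236 and 0.192 without GFP- replicate 1 or 2, while the difference stayed between -0.49 and -0.41.

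Next to Mki67 stood the other chromosome and centromere genes. Cenpa, the histone variant that marks centromeres, read 12.03 on both GFP+ arrays and 11.84 on both GFP- arrays (difference -0.19, limma adjusted p = 0.179). Birc5 (survivin, a subunit of the chromosomal passenger complex) differed by -0.13 (adjusted p = 0.334). Cenpe, a kinetochore motor, differed by -0.16 with overlapping groups at its brightest probe set (adjusted p = 0.403). Its dimmer probe set read 9.35 and 9.53 against 9.13 and 9.17, with both GFP- arrays below both GFP+ arrays (-0.29, adjusted p = 0.139). Top2a, the topoisomerase that untangles sister chromatids, differed by -0.11 at its brightest probe set (adjusted p = 0.419), whereas a dimmer one read 8.50 and 8.32 against 7.39 and 7.88 (-0.78, adjusted p = 0.0834). The dimmest Top2a probe set, with a mean of 4.57, gave 0.10 with overlapping groups.

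Of the mitotic kinases and their partners, Aurkb (the catalytic subunit of the passenger complex) had the largest difference that did not pass in the M-phase group. It read 10.38 and 10.35 against 10.10 and 10.09 (-0.27, 95% interval -0.45 to -0.08, limma adjusted p = 0.0984). Cdc20, the activator of the anaphase-promoting complex and the brightest M-phase member on these arrays, read 13.20 and 13.23 against 13.09 and 13.09 (-0.13, adjusted p = 0.326). Aurka, a centrosome kinase, read 10.64 and 10.80 against 10.53 and 10.77, a difference of -0.07 (adjusted p = 0.75). Plk1, a kinase of mitotic entry, read 10.87 and 10.98 against 10.78 and 10.96 (-0.06, adjusted p = 0.758). In both genes, and in Cdk1 and Cenpe, replicate 2 was above replicate 1 within each group. The same held, by a small margin in several, for Mki67, Ccna2, Top2a, Cdc20, Birc5 and Cenpa. It did not hold for Ccnb2, Aurkb and Bub1. Bub1, a checkpoint kinase, differed by -0.04 with overlapping groups (adjusted p = 0.797). With an intensity trend in the variance, Aurkb, Cdc20 and Cenpa passed beside Mki67.

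None of the 3 measured cyclin and kinase genes that trigger mitosis passed. Cdk1, the mitotic kinase, read 11.78 and 11.91 against 11.69 and 11.86, with overlapping groups (-0.07, limma adjusted p = 0.691). Ccnb2, a B-type cyclin, read 11.68 and 11.72 against 11.58 and 11.57 (-0.12, adjusted p = 0.353). Ccna2, the cyclin of S phase and G2, differed by -0.10 (adjusted p = 0.432). The second Ccna2 probe set gave 0.13, so its sign depends on the probe set. Relative to the array medians, 12 of the 13 M-phase genes remained below 0 and Bub1 was at 0.0011, and without GFP- replicate 1 the count below 0 was 10.

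**Figure D4:**
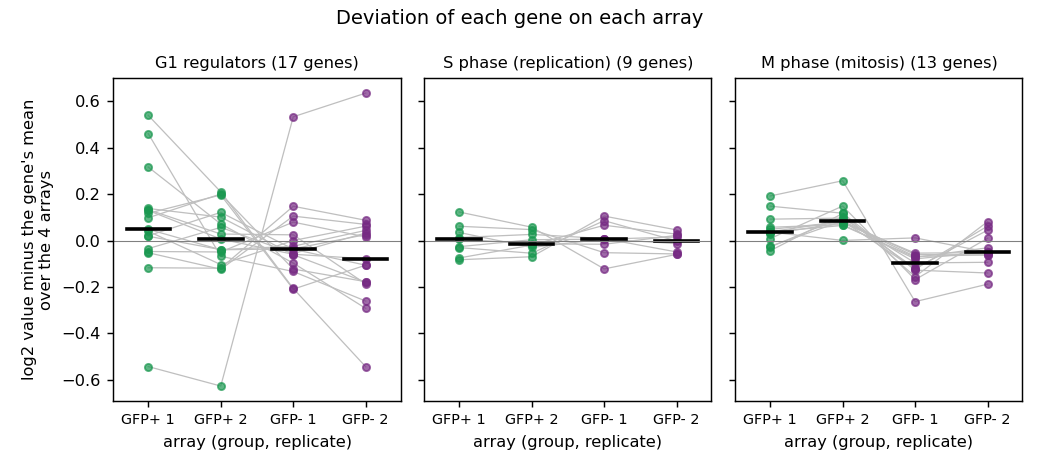
Deviation of each gene's log2 value from its own mean over the 4 arrays (y axis) on each array (x axis), one panel per phase, with a point per gene, a grey line joining the points of a gene and a black bar at the median. The M-phase medians are 0.04 and 0.09 on the GFP+ arrays and -0.10 and -0.05 on the GFP- arrays, and the S-phase medians stay between -0.01 and 0.01.

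Seen array by array, the median M-phase deviation from each gene's own mean was 0.04 and 0.09 on the GFP+ arrays and -0.10 and -0.05 on the GFP- arrays, with the 2 arrays of a group on the same side of 0. The G1 medians were 0.05 and 0.01 against -0.04 and -0.08, and the S-phase medians 0.01 and -0.01 against 0.01 and -0.00. Over all genes the medians ran from -0.04 to 0.03.

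The wider machinery was read through 6 further lists of 175 measured genes, drawn up with earlier results of these arrays known. By limma, 5 of these genes were higher and 2 lower in GFP- cells, and 44 had an unadjusted p under 0.05, 21 higher and 23 lower, beside the 8.02% and 25.8% of all genes given above. None passed among 43 replication origin and fork genes (median 0.02, 4 higher and 0 lower at an unadjusted p under 0.05) or among 16 nucleotide supply genes (median 0.07, 3 higher and 1 lower). None passed among 40 spindle and checkpoint genes either, where 35 differences were below 0 with a median of -0.13, both GFP- arrays lay below both GFP+ arrays for 27 and above for 2 (21.7% and 38.4% of all genes), and 9 were lower and 1 higher at an unadjusted p under 0.05. These spindle and checkpoint genes, which were not among the 40, were measured on the same 4 arrays, so they are no independent check of its sign.

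Of 31 genes of mitotic entry and exit (median -0.07), 1 passed, beside 8.02% of all genes. Cdc25b, the phosphatase that activates Cdk1 at the start of mitosis, read 9.35 and 9.22 against 8.37 and 8.31 (-0.94, limma adjusted p = 0.0132). Of 27 other G1 regulators (median -0.03), 2 were higher and 1 lower, beside 5.4% and 2.63% of all genes. Mybl2 (B-Myb, the activator that joins the mitotic gene complexes) read 7.65 and 7.66 against 8.54 and 8.56 (0.89, adjusted p = 0.0108). Cdkn2a, the locus of the p16 and p19Arf brakes, was low on all arrays, at 5.13 and 5.43 against 6.15 and 6.27 (0.94, adjusted p = 0.030). Ccng2, a cyclin linked to cell cycle exit, read 10.06 and 9.94 against 9.30 and 9.13 (-0.78, adjusted p = 0.026).

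The p53 target list had the highest median of the 6, 0.19 over 18 genes. In it 3 genes were higher and none lower, beside 5.4% and 2.63% of all genes. Both GFP- arrays lay above both GFP+ arrays for 11, beside 38.4% of all genes. Pmaip1 (Noxa, a trigger of apoptosis) read 7.54 and 7.10 against 9.61 and 9.38, a difference of 2.18 (limma adjusted p = 0.0115) and the largest of the 7 genes that passed in these lists. Plk2, a stress-induced kinase, read 7.86 and 7.78 against 8.62 and 8.67 (0.82, adjusted p = 0.0143), and Perp, a desmosome and death effector, read 7.19 and 7.05 against 7.87 and 7.85 (0.74, adjusted p = 0.0207). Cdkn1a, the cell cycle inhibitor among the p53 targets and itself one of the 39 genes, overlapped between groups at its brightest probe set. Its dimmer probe set lay higher on both GFP- arrays without passing, as given above. The pluripotency and endoderm markers moved in the same direction as these 3 genes, and their part in the p53 target values was not tested. None of the 7 passed without GFP- replicate 1 or 2, and without GFP+ replicate 1 only Pmaip1 did.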

How the data were processed

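RNA from Rax::GFP+ and Rax::GFP- cells was hybridised to 4 Affymetrix GeneChip mouse genome arrays, 2 per group. The authors background-corrected, normalised and summarised the probes with RMA, and the deposited values are log2 signals for 45101 probe sets (R 2.13.0 per the submitters' processing notes). The array medians were 5.84 to 5.89, the lowest value was 2.20 and the highest 15.1, and scanner files were not used here. The number of arrays limits the precision.

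The values were fitted without a filter in limma 3.58.1 (R 4.3.3) with 2 groups and empirical Bayes variances (2 residual and 2.52 prior degrees of freedom). Benjamini-Hochberg adjustment ran over all probe sets with a threshold of 0.05, and differences are GFP- minus GFP+. With 2 arrays a group, the smallest two-sided p of an exact permutation test is 0.333. GEO's platform annotation gave 1 gene symbol to 34958 probe sets, several to 932 and none to 9211. Each gene was read at the probe set, annotated to it alone, with the highest mean over the 4 arrays (18194 genes).

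All members are given. Those past the threshold, the brightest member of each phase and the largest difference that did not pass were given with every array, members with a dimmer probe set past the threshold were named, and from each wider list up to 4 genes past the threshold were named. The members, the marker lists and the 6 wider lists were chosen with earlier results of these data known. Of the 221 entries in all 11 lists, 215 were measured, 3 of them through a gene ID. Lists are described by counts and medians, with no test over a list. Alternatives were Storey's q-value, a filter on dim probe sets (log2 of at least 5 on at least 2 arrays), median centring, quantile normalisation, an intensity trend, array weights, other probe set rules, no control probe sets, the replicate number as a block and each array left out. Promoter sequences are from RefSeq.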

Additional observations from a re-analysis of the deposited data

How the results depend on the processing

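With 2 arrays per group the counts of calls depend on how the variance is estimated and on each array. Cdk6 passed in all alternatives except the replicate block and the leaving out of either GFP- array, and Mki67 in all except the block and the leaving out of any 1 array. The cause of each change below was not tested unless stated. With Storey's q-value, 6134 probe sets and 2422 genes passed in place of 3367 and 1460, with 11 member probe sets in place of 4, 2 members lower in GFP- cells in place of 1, and 9 wider-list genes higher and 7 lower in place of 5 and 2. After the filter on dim probe sets, which leaves 29042 to adjust over, 7 member probe sets and 9 and 7 wider-list genes passed. With an intensity trend, 6962 probe sets and 3088 genes passed, with 21 member probe sets, 3 members higher and 7 lower, and 19 and 22 wider-list genes. With the mean of a gene's probe sets, 2476 genes passed, with 3 members lower and 9 and 10 wider-list genes.

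The replicate numbers were fitted as a block although the duplicates were not stated to be paired. Over all probe sets, the deviations of the arrays numbered 1 correlated at -0.05 between the groups, which does not show pairing. Most M-phase genes nevertheless read higher in replicate 2 than in replicate 1 in both groups. With the replicate block 0 probe sets, 0 genes, 0 members in either direction, 0 member probe sets and 0 wider-list genes in either direction passed, while 9 of the 39 members had an unadjusted p under 0.05 (Cdk6 adjusted p = 0.0668, Mki67 adjusted p = 0.110). The block leaves 1 residual degree of freedom. With 1 array left out, where the lone array was assumed to vary like the other group, 0 to 2978 probe sets and 0 to 877 genes passed, with 0 to 2 member probe sets, 0 to 1 members higher, 0 lower, 0 to 5 wider-list genes higher and 0 to 2 lower. All counts were 0 without either GFP- array (limma, with 4 members at an unadjusted p under 0.05 each time), and without GFP+ replicate 1 they were 820 probe sets and 375 genes.

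The phase medians moved by less than 0.1, though for the G1 and S-phase groups this was large beside the median itself, and the S-phase median changed sign with 1 array left out. The G1 median (-0.14) was -0.098 after centring, -0.086 after quantile normalisation, -0.057 over gene means and -0.15 to -0.067 with 1 array left out. The S-phase median (0.01) was 0.046 after centring, 0.036 over gene means, 0.085 without _x_at and _s_at probe sets and -0.0035 to 0.026 with 1 array left out. The M-phase median (-0.12) was -0.083 after centring and -0.15 to -0.089 with 1 array left out.

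Signs turned only for members with main differences from -0.11 (Rrm1) to 0.09 (Mcm4), none of which passed in the setting that turned it. Rrm1 and Ccna2 (-0.10) were nearly as far from 0 as the M-phase median of -0.12. After centring, Ccnd3 was 0.029, Cdk4 0.016, Mcm2 0.033 and Bub1 0.0011. After quantile normalisation Mcm2 was 0.0081. Over gene means, Ccnd3 was 0.059, Cdk2 -0.057, Mcm2 0.036, Mcm4 -0.0042, Mcm5 0.047, Rrm1 0.10 and Ccna2 0.015. Without _x_at and _s_at probe sets, Mcm2 was 0.077 and Mcm5 0.085. With 1 array left out, Ccnd3 ran from -0.054 to 0.035, Cdk4 from -0.069 to 0.023, Mcm2 from -0.038 to 0.027, Cdkn1a from -0.0091 to 0.13, Cdk2 from -0.014 to 0.054, Mcm7 from -0.012 to 0.026, Aurka from -0.19 to 0.045, Cdk1 from -0.16 to 0.0079 and Plk1 from -0.15 to 0.033.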
